A study of Mus musculus with 12 samples.

Results

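The BCL2 family of apoptosis regulators was followed through 10 listed genes: the anti-apoptotic Bcl2, Bcl2l1 and Mcl1, the BH3-only genes Bcl2l11, Bbc3, Pmaip1, Bid and Bad, and the effectors Bax and Bak1. A member was measured where a probe set of the array carried its gene symbol and no other, which held for 9 of the 10, each through 1 probe set. Bax was not analysed here. The 9 genes were read out of a fit over 19937 genes.

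The samples were 12 arrays of RNA from sorted mouse bone marrow progenitors, in 4 groups of 3. The mice were C57BL6, with Mx1-Cre written as wt/wt for both genotypes; the Lamtor2 alleles were f/f (floxed) in the mice behind LSK KO and GMP KO, and wt/wt in those behind LSK WT and GMP WT. There were 3 mice of each genotype, and every mouse, WT included, received pIpC intraperitoneally and was sampled at day 14. LSK cells are Lin- Sca1+ c-Kit+ and hold the stem cells and multipotent progenitors, and GMP cells are Lin- Sca1- c-Kit+ CD34+ FcγR+, the granulocyte and macrophage progenitors. The Mx1 promoter that drives Cre responds to interferon, which pIpC induces, and it is active in many tissues, so the deletion is not confined to the sorted cells by design. Age is not given in the sources used here, nor which LSK and GMP samples share a mouse. Lamtor2 encodes a subunit of Ragulator, the late endosomal scaffold for mTORC1 and MEK signalling.

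The BCL2 family decides whether the outer mitochondrial membrane is opened during intrinsic apoptosis. The effectors BAX and BAK form the pores through which cytochrome c leaves. BCL2, BCL-XL (from Bcl2l1) and MCL1 hold the effectors and the BH3-only proteins in check. BH3-only proteins such as BIM (from Bcl2l11), PUMA (from Bbc3) and NOXA (from Pmaip1) carry stress signals to them, and BID does so after cleavage downstream of death receptors. In the blood system, MCL1 is known to be needed for the survival of stem and progenitor cells, and BIM for the timely death of granulocytes and lymphocytes.

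Much of the family's regulation is transcriptional, so the start-site windows of 3 members whose RNA differed between KO and WT GMP are given here, 2 that were higher in KO GMP (Bcl2l11 and Mcl1) and 1 that was lower (Bid). Each covers 250 bases before to 50 bases after a RefSeq start site in GRCm38.p6, 5′ to 3′ on the gene's strand. Capitals mark matches to 2 of 8 motifs searched on both strands, the FOXO motif TGTTTAC and the NF-Y motif CCAAT, either of which can appear as its reverse complement.
Bcl2l11, chr2:128125788-128126087, plus strand: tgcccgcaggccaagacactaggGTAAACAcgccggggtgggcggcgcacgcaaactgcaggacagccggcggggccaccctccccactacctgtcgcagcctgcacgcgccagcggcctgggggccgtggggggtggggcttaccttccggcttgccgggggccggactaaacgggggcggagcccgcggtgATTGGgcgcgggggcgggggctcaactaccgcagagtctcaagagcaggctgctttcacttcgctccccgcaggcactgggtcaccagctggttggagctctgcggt
Bcl2l11, chr2:128127325-128127624, plus strand: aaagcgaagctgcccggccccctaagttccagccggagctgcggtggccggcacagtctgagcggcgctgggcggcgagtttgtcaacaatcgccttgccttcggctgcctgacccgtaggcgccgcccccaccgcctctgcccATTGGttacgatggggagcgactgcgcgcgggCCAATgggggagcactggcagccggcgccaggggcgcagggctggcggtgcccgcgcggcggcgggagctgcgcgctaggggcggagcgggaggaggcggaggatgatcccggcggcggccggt
Mcl1, chr3:95658471-95658770, plus strand: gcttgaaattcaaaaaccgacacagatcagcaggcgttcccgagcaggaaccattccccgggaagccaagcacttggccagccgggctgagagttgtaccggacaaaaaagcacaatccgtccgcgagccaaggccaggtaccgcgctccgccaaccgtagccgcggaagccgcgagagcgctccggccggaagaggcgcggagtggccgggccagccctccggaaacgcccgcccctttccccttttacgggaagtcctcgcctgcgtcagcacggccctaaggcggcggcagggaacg
Bid, chr6:120916775-120917074, minus strand: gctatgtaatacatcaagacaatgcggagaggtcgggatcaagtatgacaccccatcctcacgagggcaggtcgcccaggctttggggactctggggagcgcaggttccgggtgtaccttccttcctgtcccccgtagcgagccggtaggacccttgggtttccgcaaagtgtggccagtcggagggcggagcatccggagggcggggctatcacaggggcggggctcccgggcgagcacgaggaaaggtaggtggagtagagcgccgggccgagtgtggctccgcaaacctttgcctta

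The first Bcl2l11 window held the FOXO motif once, and each of its windows held CCAAT, once in the first and 2 times in the second. Over 32851 RefSeq promoter windows of the same length, 3.65% held TGTTTAC and 37.4% held CCAAT. The Mcl1 and Bid windows held none of the 8 motifs. The other 6 were the E-box CACGTG, in 7.15% of all windows, the CRE TGACGTCA, in 1.79%, the AP-1 motif TGANTCA, in 7.81%, the STAT motif TTCCNGGAA, in 1.15%, the C/EBP motif TTGCGCAA, in 0.183%, and the C/EBP-ATF element TGATGCAA, in 0.895%. Windows of other members, not printed here, were searched too. Of the members not called different between KO and WT GMP, Bbc3 held the FOXO motif, CCAAT and CACGTG among its windows, and Bad held CCAAT. The windows of Bcl2, Bcl2l1 and Bak1, which were called different, held none of the 8 motifs. The motifs were chosen after the values were seen, and a match or its absence describes these letters only.

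The targeted gene went with the labels. Lamtor2 read 5.11, 5.40 and 5.77 in LSK KO, against 10.39, 10.48 and 10.31 in LSK WT, on the log2 scale of the deposited RMA values. It read 5.53, 5.12 and 4.95 in GMP KO, against 10.80, 10.82 and 10.61 in GMP WT. The highest KO reading, 5.77, serves as a floor near which a value cannot be told from an absent transcript. The lowest member value on any array was 5.80 and the lowest group mean 6.10, so 0 member group means lay at or below the floor, with Bbc3 nearest to it. Pmaip1 was next, at a mean of 6.23 in LSK WT and in GMP WT. Array medians lay between 5.96 and 6.18. GMP KO replicate 1 differed most from its group (mean Pearson r of 0.979 against the other 2, limma weight 0.19), so results in GMP are also given without it. LSK markers averaged 7.64, 7.88 and 7.53 in GMP KO and 7.41, 7.61 and 7.38 in GMP WT, and GMP markers 10.86, 10.68 and 10.73 in GMP KO and 10.93, 10.84 and 10.78 in GMP WT. Single markers did differ in GMP. Of 8 LSK markers, Flt3 (log2 1.26) and Kit (0.43) were higher in GMP KO than in GMP WT. Of 10 GMP markers, Fcgr2b was higher (0.69) and Prtn3 (-0.56) and Cebpe (-0.6) were lower, all at an adjusted p under 0.05 (limma). In LSK the LSK markers averaged 9.31, 9.37 and 9.58 in KO and 9.60, 9.67 and 9.71 in WT, and the GMP markers 9.62, 9.04 and 9.05 in KO and 8.71, 8.16 and 7.88 in WT. Of the LSK markers, Hlf was lower in LSK KO (log2 -0.55, adjusted p = 0.0293 from limma).

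In GMP, loss of Lamtor2 went with a changed set of BCL2 family transcripts on both sides of the balance. Bcl2l1, Mcl1, Bcl2l11 and Pmaip1 were higher in KO and Bcl2, Bid and Bak1 were lower, 7 of 9 members past the threshold (limma, Benjamini-Hochberg adjusted p under 0.05 over all genes). Among all 19937 genes, 16.1% passed, 5.78% as higher and 10.3% as lower in KO. For the same 7 members the 3 KO and the 3 WT arrays did not overlap, which held for 29.6% of all genes. The median member difference was 0.00, beside 0.01 over all genes.

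**Figure D1:**
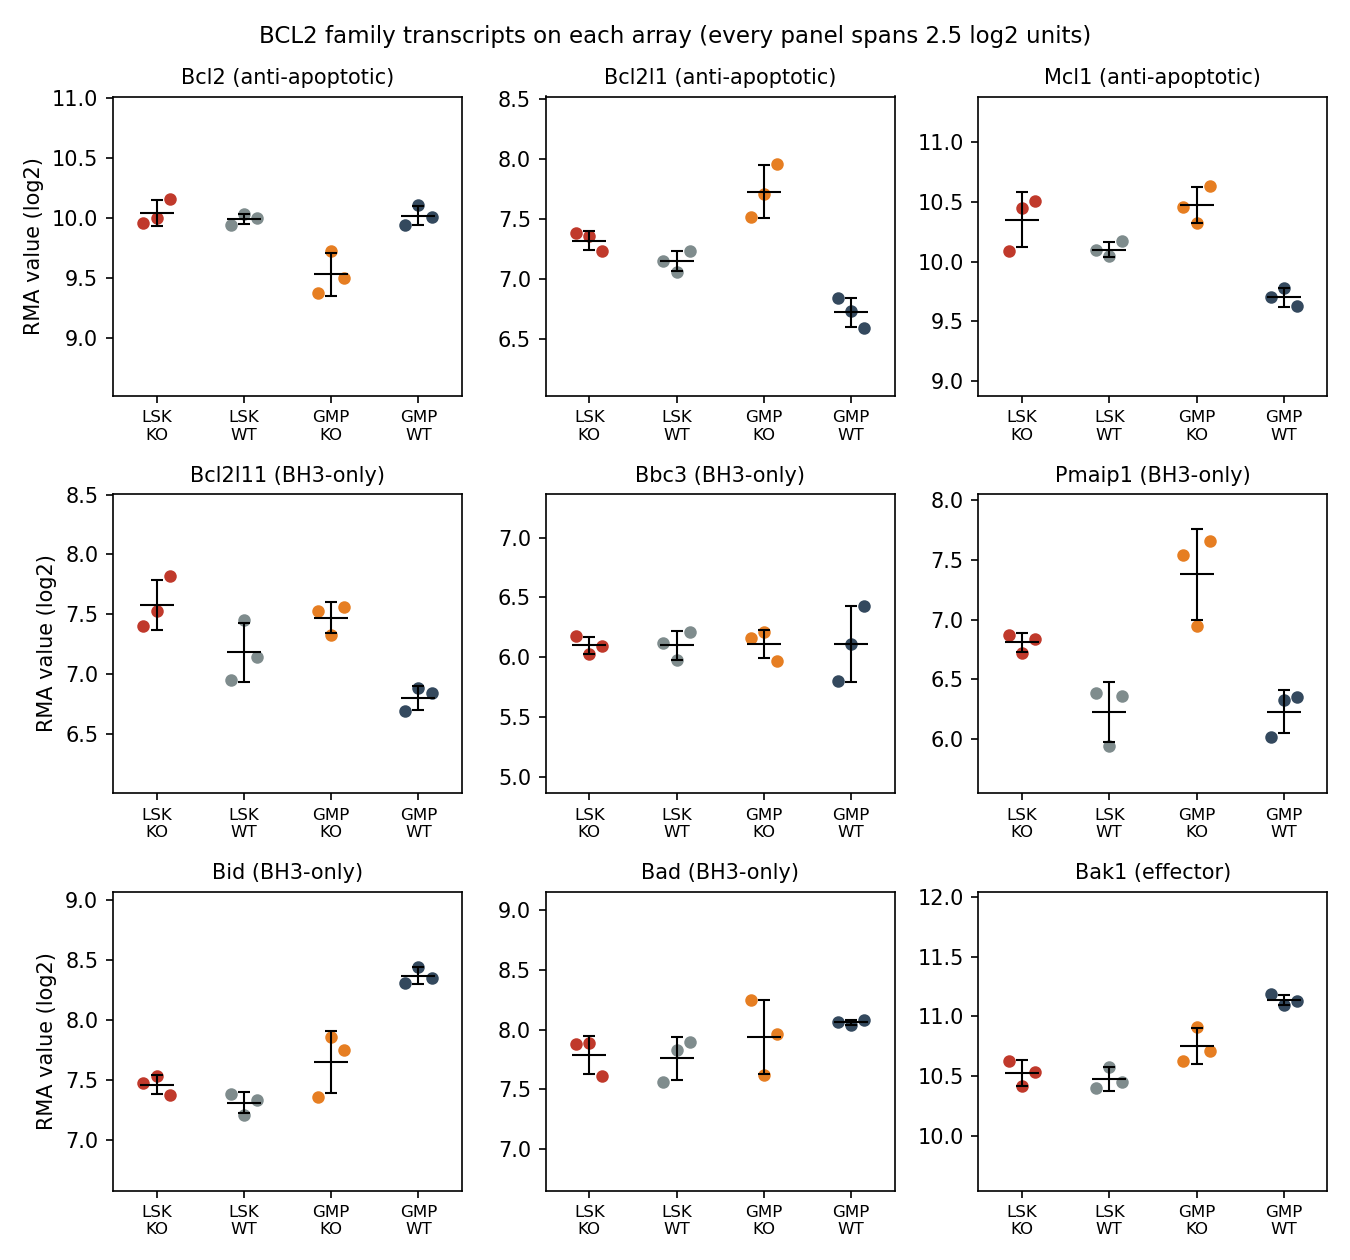
Level of each measured BCL2 family member in every array (RMA value, log2). Points are arrays, with KO left of WT and LSK left of GMP, horizontal bars are group means with the SD of 3 arrays, and every panel spans the same log2 range. The GMP KO points of Bcl2l1, Mcl1, Bcl2l11 and Pmaip1 all lie above the GMP WT points, and those of Bcl2, Bid and Bak1 all lie below.

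Bcl2l1, which encodes the guard BCL-XL, read 7.52, 7.71 and 7.96 in GMP KO, against 6.84, 6.73 and 6.59 in GMP WT. Every KO array lay above every WT array. The mean was 7.73 ± 0.22 in KO and 6.72 ± 0.12 in WT (SD, n = 3 each), and the level rose 2.01-fold (log2 1.01, SE 0.12, adjusted p = 8.44e-05).
Mcl1, whose protein turns over quickly and holds BIM, NOXA and BAK, read 10.46, 10.32 and 10.63 in GMP KO, against 9.70, 9.78 and 9.63 in GMP WT. It rose 1.70-fold (log2 0.77, SE 0.12, adjusted p = 0.000817), with no overlap of the arrays.
Bcl2, the founding anti-apoptotic member, went the other way. It read 9.37, 9.72 and 9.50 in GMP KO, against 9.94, 10.11 and 10.01 in GMP WT, and fell to 0.71 of the WT level (log2 -0.49, SE 0.10, adjusted p = 0.0059). With quantile normalisation repeated it was at -0.33 (adjusted p = 0.0248 from limma). The 3 anti-apoptotic genes thus differed in direction within GMP.

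Among the BH3-only genes, Pmaip1 encodes NOXA, which binds MCL1 selectively. It read 7.54, 6.95 and 7.66 in GMP KO, against 6.02, 6.33 and 6.35 in GMP WT. KO replicate 2 was the lowest KO array and still lay above the WT arrays, and the level rose 2.23-fold (log2 1.15, SE 0.17, adjusted p = 0.000677).
Bcl2l11, whose product BIM binds all the anti-apoptotic members, read 7.53, 7.33 and 7.56 in GMP KO, against 6.69, 6.88 and 6.84 in GMP WT. It rose 1.59-fold (log2 0.67, SE 0.14, adjusted p = 0.00516), and the groups did not overlap.
Bid, which links death receptors to mitochondria, read 7.36, 7.86 and 7.75 in GMP KO, against 8.31, 8.44 and 8.35 in GMP WT. It fell to 0.61 of the WT level (log2 -0.72, SE 0.12, adjusted p = 0.00142). KO replicate 1 was the lowest of the KO arrays, and all 3 lay below the WT arrays.

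Bbc3, which encodes PUMA, an activator that p53 induces, did not pass the test. It read 6.16, 6.21 and 5.97 in GMP KO, against 5.80, 6.11 and 6.43 in GMP WT, with a log2 difference of 0.00 (95% interval -0.30 to 0.30, adjusted p = 1.0). The values lay close above the floor in both groups, and the WT arrays spread more widely than the KO arrays.
Bad, whose product is switched off by phosphorylation through growth factor signalling, read 8.25, 7.62 and 7.96 in GMP KO, against 8.06, 8.04 and 8.08 in GMP WT. Its difference was -0.12 (95% interval -0.43 to 0.20, adjusted p = 0.669), and the KO arrays lay on both sides of the WT arrays.

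Bak1, the measured effector, read 10.63, 10.91 and 10.71 in GMP KO, against 11.19, 11.10 and 11.13 in GMP WT. It fell to 0.76 of the WT level (log2 -0.39, SE 0.10, adjusted p = 0.0173) with no overlap. This call ended with quantile normalisation repeated (log2 -0.24, adjusted p = 0.107), in a limma fit of the 2 GMP groups alone (adjusted p = 0.0708) and without GMP WT replicate 1 (adjusted p = 0.0667).

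Without GMP KO replicate 1, the array that stood apart, 7 of 9 members still passed the threshold in GMP. Of all genes 15.5% passed in that fit. Bcl2l1 was then higher by 1.11, Pmaip1 by 1.07, Mcl1 by 0.77 and Bcl2l11 by 0.64 on the log2 scale. Bid was at -0.57, Bcl2 at -0.41 and Bak1 at -0.33, the last with an adjusted p of 0.0445 from limma.

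Markers of other blood cells moved with the GMP KO group. The macrophage list had 12 of 12 genes measured, and its mean level was 8.07, 8.33 and 8.48 in GMP KO, against 6.69, 6.60 and 6.55 in GMP WT. Of these genes 6 rose, among them Cd68, a lysosomal membrane glycoprotein of macrophages (log2 2.87, adjusted p = 2.14e-06), and C1qc, a chain of complement C1q (log2 4.83, adjusted p = 2.45e-06). Mrc1, C1qb, Mertk and Marco had group means at or below the floor in GMP WT and above it in GMP KO. The mast cell list, with 5 measured genes, averaged 9.28, 10.71 and 9.53 in GMP KO and 8.30, 8.97 and 8.59 in GMP WT, with 2 genes higher. The erythroid list, with 3 measured genes, averaged 6.62, 6.74 and 6.52 in GMP KO and 7.44, 7.36 and 7.07 in GMP WT, and 1 gene was lower, Car1, a carbonic anhydrase (log2 -1.68, adjusted p = 0.036). In single genes of other lists, Cd4 of 6 T and NK cell markers was higher in GMP KO (adjusted p = 0.000525 from limma). Its GMP WT mean lay below the floor, so its log2 difference was at least 2.82. Cd3d, Cd8a, Ncr1 and Klrb1c of that list lay at or below the floor in every group. Cd79b of 4 B cell markers was lower (log2 -0.68, adjusted p = 0.00277), and of 4 megakaryocyte markers Vwf was higher (log2 0.76, adjusted p = 0.0027) and Gp9 lower (log2 -0.55, adjusted p = 0.0278). Of 10 mature neutrophil markers, 0 passed in GMP and 0 had an unadjusted p under 0.05 (limma). Their mean level was 9.68, 8.06 and 7.79 in GMP KO and 9.71, 7.86 and 8.88 in GMP WT, a wide spread within both groups. The samples are bulk RNA, so fewer cells of a type and less RNA per cell cannot be told apart. The part of other cell types in the differences of the BCL2 family members was not tested.

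In LSK, 0 of 9 members passed the limma threshold, and 2 had an unadjusted p under 0.05, Pmaip1 and Bcl2l11. Among all genes, 4.44% passed, 2.49% as higher and 1.96% as lower in KO. The median member difference was 0.15, beside -0.01 over all genes, and 8 of 9 differences were above 0. The share of all genes above 0 was not counted. Bcl2 (-0.027) and Bak1 (-0.010) fell below 0 with quantile normalisation repeated, and Bad did so in some fits that left out a single array. The groups did not overlap for 1 member, Pmaip1, against 25.5% of all genes.

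Pmaip1 read 6.87, 6.72 and 6.84 in LSK KO, against 6.39, 5.94 and 6.36 in LSK WT. All KO arrays lay above all WT arrays, with a difference of 0.58 (SE 0.17, 95% interval 0.20 to 0.96, adjusted p = 0.0859). It passed with array weights (adjusted p = 0.0346), in a limma fit of the LSK groups alone (adjusted p = 0.0247) and without GMP KO replicate 2 (adjusted p = 0.0236).
Bcl2l11 read 7.40, 7.53 and 7.82 in LSK KO, against 6.95, 7.45 and 7.14 in LSK WT. The groups overlapped through KO replicate 1 and WT replicate 2, and the difference was 0.41 (SE 0.14, 95% interval 0.11 to 0.70, adjusted p = 0.134).

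Of the guards, Mcl1 read 10.09, 10.45 and 10.51 in LSK KO, against 10.10, 10.05 and 10.17 in LSK WT, a difference of 0.24 (95% interval -0.02 to 0.50, adjusted p = 0.356). KO replicate 1 lay among the WT arrays.
Bcl2l1 read 7.38, 7.36 and 7.23 in LSK KO, against 7.15, 7.06 and 7.23 in LSK WT, a difference of 0.18 (95% interval -0.07 to 0.42, adjusted p = 0.541). The lowest KO array equalled the highest WT array to 2 decimals.
Bcl2 lay between 9.96 and 10.16 in LSK KO (mean 10.04 ± 0.11), against 9.94 to 10.03 in LSK WT (mean 9.99 ± 0.04; SD, n = 3 each). The groups overlapped, and the difference was 0.05 (95% interval -0.17 to 0.28, adjusted p = 0.902).

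The remaining members overlapped between LSK KO and LSK WT. Bid averaged 7.46 ± 0.08 in KO and 7.31 ± 0.09 in WT (SD, n = 3 each; difference 0.15, 95% interval -0.11 to 0.41). Bak1 averaged 10.53 ± 0.11 in KO and 10.48 ± 0.10 in WT (difference 0.05, 95% interval -0.16 to 0.27). Bad was at 7.79 ± 0.16 in KO and 7.76 ± 0.18 in WT. Bbc3 was at 6.10 ± 0.07 in KO and 6.10 ± 0.12 in WT, near the floor as in GMP.

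In LSK the macrophage list averaged 6.62, 7.56 and 6.86 in KO and 6.15, 6.22 and 5.95 in WT, with 4 of 12 genes higher in KO. Mrc1, Vcam1 and Marco lay at or below the floor in LSK KO, and Adgre1, Mrc1, Mertk and Marco in LSK WT. The mast cell list averaged 9.51, 8.46 and 8.56 in LSK KO and 7.40, 7.26 and 6.73 in LSK WT, with 3 of 5 genes higher. The megakaryocyte list, with 4 measured genes, averaged 7.56, 7.07 and 7.47 in LSK KO and 8.20, 8.28 and 7.77 in LSK WT without overlap, and 1 gene was lower, Pf4, a platelet chemokine (log2 -2.33, adjusted p = 0.0497). Of the 3 erythroid, 4 B cell, 6 T and NK cell and 10 mature neutrophil markers, 0 passed in LSK, with 0, 2, 1 and 0 at an unadjusted p under 0.05 (limma). The neutrophil list spread widely here too, at 7.61, 9.27 and 7.92 in LSK KO and 9.5, 8.01 and 7.6 in LSK WT. The GMP list, whose means are given above, had 4 of 10 genes higher in LSK KO, with Fcgr3, a receptor used in the GMP gate, at a log2 difference of 2.36 (adjusted p = 7.03e-05). Without LSK KO replicate 2, the LSK array with the highest macrophage mean, 0 members passed in LSK and 7 in GMP. Of all genes 2.82% passed in LSK and 15.1% in GMP in that fit. The LSK count was already 0 with all arrays, and the GMP differences do not use that array. This fit therefore cannot show the part of macrophages. The part of these cell types was not tested here either.

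**Figure D2:**
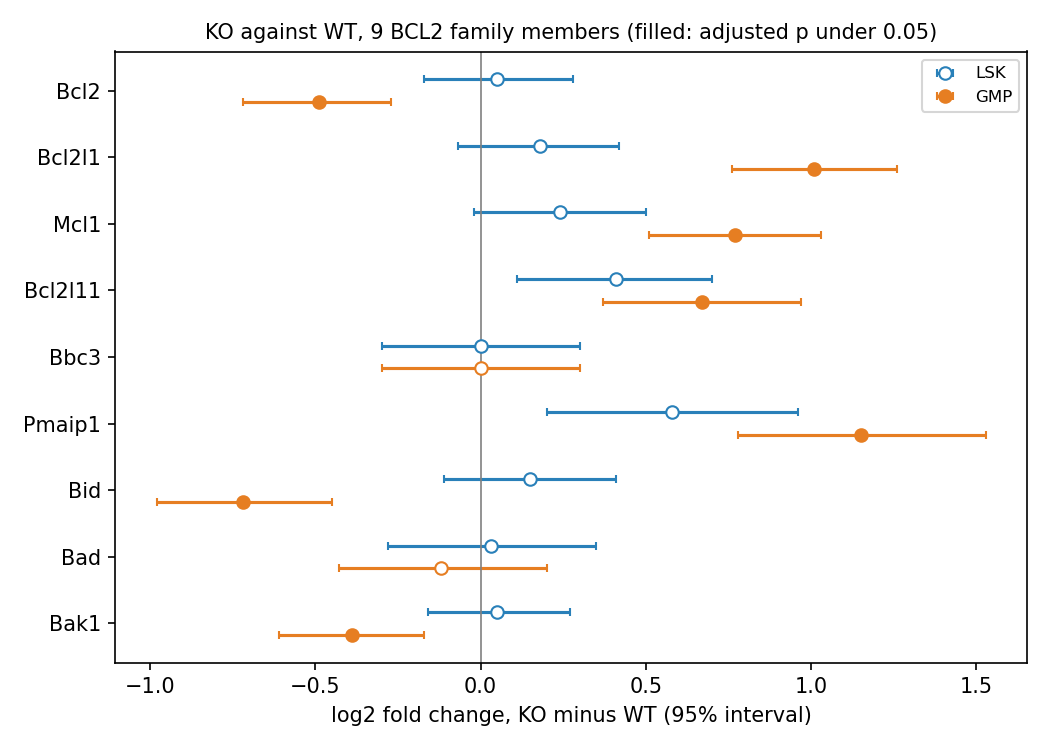
Difference between KO and WT (log2, KO minus WT) of each member in LSK and in GMP, with the 95% interval of the limma fit. Filled symbols passed the adjusted p threshold of 0.05, which 7 members did in GMP and 0 in LSK.

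Whether the KO difference itself depended on the cell type was tested as an interaction, the LSK difference minus the GMP difference. It passed for 3 of 9 members, 2 above 0 and 1 below, while 7.98% of all genes passed, 5.34% above 0 and 2.64% below. Bcl2l1 had an interaction of -0.83 (SE 0.16, adjusted p = 0.00919), from 0.18 in LSK and 1.01 in GMP. Bid had one of 0.86 (SE 0.17, adjusted p = 0.00932), from 0.15 in LSK and -0.72 in GMP. Bcl2 had one of 0.54 (SE 0.15, adjusted p = 0.0387), from 0.05 in LSK and -0.49 in GMP.

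The Bcl2 call is the least settled of these. It ended with quantile normalisation repeated (interaction 0.30, adjusted p = 0.195), with all probe sets tested (adjusted p = 0.067) and in 10 of the 12 limma fits that left out a single array, with adjusted p up to 0.109. Mcl1 (-0.53, adjusted p = 0.0775), Bak1 (0.44, adjusted p = 0.0752) and Pmaip1 (-0.57, adjusted p = 0.189) did not pass in the fit of all arrays. Mcl1 passed with quantile normalisation repeated (adjusted p = 0.0242), with array weights (0.0359) and without GMP KO replicate 2 (0.0476), all from limma. Bak1 passed with arrays centred (adjusted p = 0.041), with the trend and robust options (0.0427), with array weights (0.0424) and without GMP KO replicate 2 (0.0328), but was at 0.23 with quantile normalisation repeated (adjusted p = 0.359). Pmaip1 passed without GMP KO replicate 2 (-0.79, adjusted p = 0.027). The interaction of Bcl2l11 was -0.26 with a 95% interval of -0.69 to 0.16, so a different KO effect on Bcl2l11 in LSK and GMP was not shown.

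Some members also differed between the cell types in WT mice. Bcl2l1 and Mcl1 were higher in LSK than in GMP, and Bid and Bak1 were lower, 4 of 9 members. Of all genes 19.6% passed, 10.3% as higher and 9.32% as lower in LSK, and with the dimmest 30% of genes left out 28.1% passed. With arrays centred on their gene median, 2 of 9 members passed, near the share of all genes, 22.8%. Bid showed the widest gap, at 7.38, 7.21 and 7.33 in LSK WT, against 8.31, 8.44 and 8.35 in GMP WT (log2 -1.06, SE 0.12, adjusted p = 2.91e-05). Bak1 read 10.40, 10.58 and 10.45 in LSK WT, against 11.19, 11.10 and 11.13 in GMP WT (log2 -0.66, adjusted p = 0.000319). Neither gene had overlapping groups.

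Bcl2l1 read 7.15, 7.06 and 7.23 in LSK WT, against 6.84, 6.73 and 6.59 in GMP WT (log2 0.42, adjusted p = 0.0184). Mcl1 read 10.10, 10.05 and 10.17 in LSK WT, against 9.70, 9.78 and 9.63 in GMP WT (log2 0.40, adjusted p = 0.0291). Neither pair of groups overlapped. The Bcl2l1 call ended with arrays centred on their gene median (adjusted p = 0.0711), with quantile normalisation repeated (0.0825) and in 4 of the limma fits that left out a single array. The Mcl1 call ended with arrays centred (adjusted p = 0.0798), with all probe sets tested (0.0581) and in 5 such fits. Bcl2l11 was at 7.18 ± 0.25 in LSK WT and 6.80 ± 0.10 in GMP WT (SD, n = 3 each, adjusted p = 0.0804 from limma). It passed with array weights (adjusted p = 0.0264), in the limma fit of the 2 WT groups alone (0.0471) and without LSK WT replicate 1 (0.0363). Bcl2, Bbc3 and Pmaip1 differed by -0.03, -0.01 and 0.00.

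In KO mice, Bcl2 was higher in LSK than in GMP, and Bcl2l1 and Pmaip1 were lower, 3 of 9 members. Of all genes 15.8% passed, 10.1% as higher and 5.79% as lower in LSK, and with the dimmest 30% of genes left out 22.5% passed. Bcl2l1 averaged 7.32 ± 0.08 in LSK KO and 7.73 ± 0.22 in GMP KO (SD, n = 3 each; log2 -0.41, adjusted p = 0.0302 from limma), the opposite sign to WT. Bcl2 averaged 10.04 ± 0.11 in LSK KO and 9.53 ± 0.18 in GMP KO (log2 0.51, adjusted p = 0.00539 from limma).

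Pmaip1 averaged 6.81 ± 0.08 in LSK KO and 7.38 ± 0.38 in GMP KO (log2 -0.57, adjusted p = 0.0414 from limma). Bid and Bak1, which separated the WT cell types, differed by -0.20 (95% interval -0.46 to 0.06) and -0.22 (adjusted p = 0.154 from limma) in KO. The calls in KO rest on the spread shared by all 4 groups. In a limma fit of the 2 KO groups alone, 0 of 9 passed, with adjusted p of 0.0526 for Bcl2, 0.117 for Bcl2l1 and 0.105 for Pmaip1. Of all genes 6.66% passed in that fit, against 15.8% in the fit of all 4 groups, so the loss of calls is not particular to the members. The Bcl2l1 call also ended in 4 and the Pmaip1 call in 9 of the 12 limma fits that left out a single array, with adjusted p up to 0.122 and 0.121. The comparisons of LSK with GMP use the same arrays as the KO and WT comparisons and repeat the interaction from another side.

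**Figure D3:**
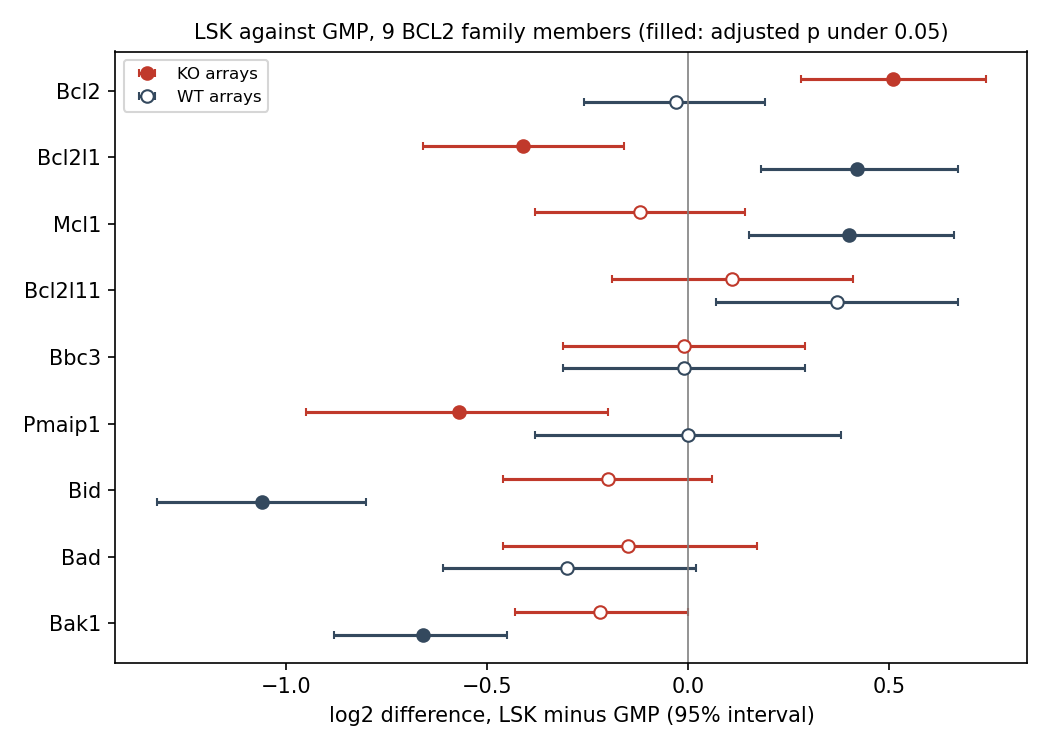
Difference between LSK and GMP (log2, LSK minus GMP) of each member in KO arrays and in WT arrays, with the 95% interval of the limma fit. Bcl2l1 lies below 0 in KO and above 0 in WT, and Bid lies nearer to 0 in KO than in WT.

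Over the 12 arrays, Bid and Bak1 varied most alike of all member pairs (Pearson r = 0.93). Bcl2l1 with Mcl1 and Mcl1 with Bcl2l11 had r = 0.88, and Bcl2 with Pmaip1 had r = -0.77. The arrays fall into 4 groups, so these values describe shared group differences and carry no test.

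Across all genes, those most like each changed member over the 12 arrays were named by Pearson correlation, 3 per member. For Bcl2l1 they were Tlr7, an endosomal RNA sensor (r = 0.961), Timp2, a metalloproteinase inhibitor (0.957), and Gpr157 (0.957). For Mcl1 they were Rgl1 and Cd274, the gene of PD-L1 (0.953 each), and Anxa4 (0.950). For Bid they were Lman2 (0.986), Spcs3 (0.985) and Pdia4 (0.984), all of the secretory pathway, and for Bak1 Prss57 (0.963), Pdia3 (0.960) and Ssr3 (0.958). For Pmaip1 the closest was the kinase gene Sgk1 (0.948), for Bcl2l11 Tex264 (0.935), ahead of the kinase gene Sik1 (0.934), and for Bcl2 the tubulin gene Tubb5 (0.972).

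The wider pathway was read from lists of genes around the family. Each count below is to be set beside the share of all genes that passed, 16.1% in GMP and 4.44% in LSK. Of 13 other measured BCL2 family members, 0 passed the limma threshold in LSK and 0 in GMP, with 1 and 3 at an unadjusted p under 0.05 and median differences of 0.05 and 0.02.

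Transcription factors known to act on family genes were measured for all 13 listed. In GMP, 3 were higher in KO, Jun, Atf3 and Ddit3, and 1 was lower, Creb1. Jun, an AP-1 subunit, read 10.13, 10.18 and 10.76 in GMP KO, against 7.90, 7.65 and 8.29 in GMP WT (log2 2.41, SE 0.39, adjusted p = 0.00107). Atf3, a stress-induced factor, read 7.43, 7.21 and 8.31 in GMP KO, against 5.81, 5.77 and 5.72 in GMP WT. Its WT mean lies at the floor, so it was at least 3.69-fold higher (adjusted p = 0.000249). Ddit3, the gene of CHOP, which acts in the unfolded protein response, read 8.71, 8.75 and 8.39 in GMP KO, against 7.85, 7.92 and 8.04 in GMP WT (log2 0.68, adjusted p = 0.00166). Creb1, a cAMP-responsive factor, was at -0.64 (adjusted p = 0.00786).

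In LSK, 1 of the 13 factors passed, Myc, at 12.29, 12.25 and 12.32 in KO, against 11.92, 11.77 and 11.85 in WT (log2 0.44, SE 0.09, adjusted p = 0.016). The Myc arrays did not overlap, but the limma call ended without LSK KO replicate 1 (0.0509) or 3 (0.0696) and without LSK WT replicate 2 (0.0805) or 3 (0.0556), all adjusted p. Jun was at 9.39, 9.60 and 11.20 in LSK KO, against 9.61, 8.70 and 9.54 in LSK WT, with KO replicate 3 far above the other arrays (adjusted p = 0.365). Atf3 read 6.03, 6.86 and 6.72 in LSK KO, against 5.48, 5.74 and 5.71 in LSK WT (adjusted p = 0.0624), and its arrays did not overlap. It passed with array weights (adjusted p = 0.0261), in the fit of the 2 LSK groups alone (0.0235), with the replicate block as a fixed term (0.0482), without LSK KO replicate 1 (0.0221) and without any single GMP KO array (0.0125 to 0.0387), all from limma.

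Downstream of the mitochondrial pore, 2 of 11 measured genes of the apoptosome and caspase list were lower in GMP KO and 0 higher. This is near the share of all genes that passed in GMP, 16.1%. In LSK 0 of 11 passed, with 2 at an unadjusted p under 0.05 (limma). Cycs encodes cytochrome c, the protein that BAK and BAX pores release. It read 10.44, 10.95 and 11.19 in GMP KO, against 11.67, 11.54 and 11.54 in GMP WT (log2 -0.72, SE 0.15, adjusted p = 0.00611). With the mean of its probe sets the difference was -0.56 and the call ended (adjusted p = 0.0787). Aifm1, a flavoprotein of the space between the mitochondrial membranes, read 8.05, 8.76 and 8.87 in GMP KO, against 9.32, 9.55 and 9.44 in GMP WT (log2 -0.87, adjusted p = 0.00356).
Of 12 inhibitors of apoptosis and their antagonists, 1 fell in GMP KO and 0 passed in LSK, where 1 had an unadjusted p under 0.05 (limma). The gene was Birc5, whose product survivin is best known from cell division. It read 9.07, 8.92 and 9.56 in GMP KO, against 10.25, 10.14 and 10.12 in GMP WT (log2 -0.99, adjusted p = 0.000763).

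**Figure D4:**
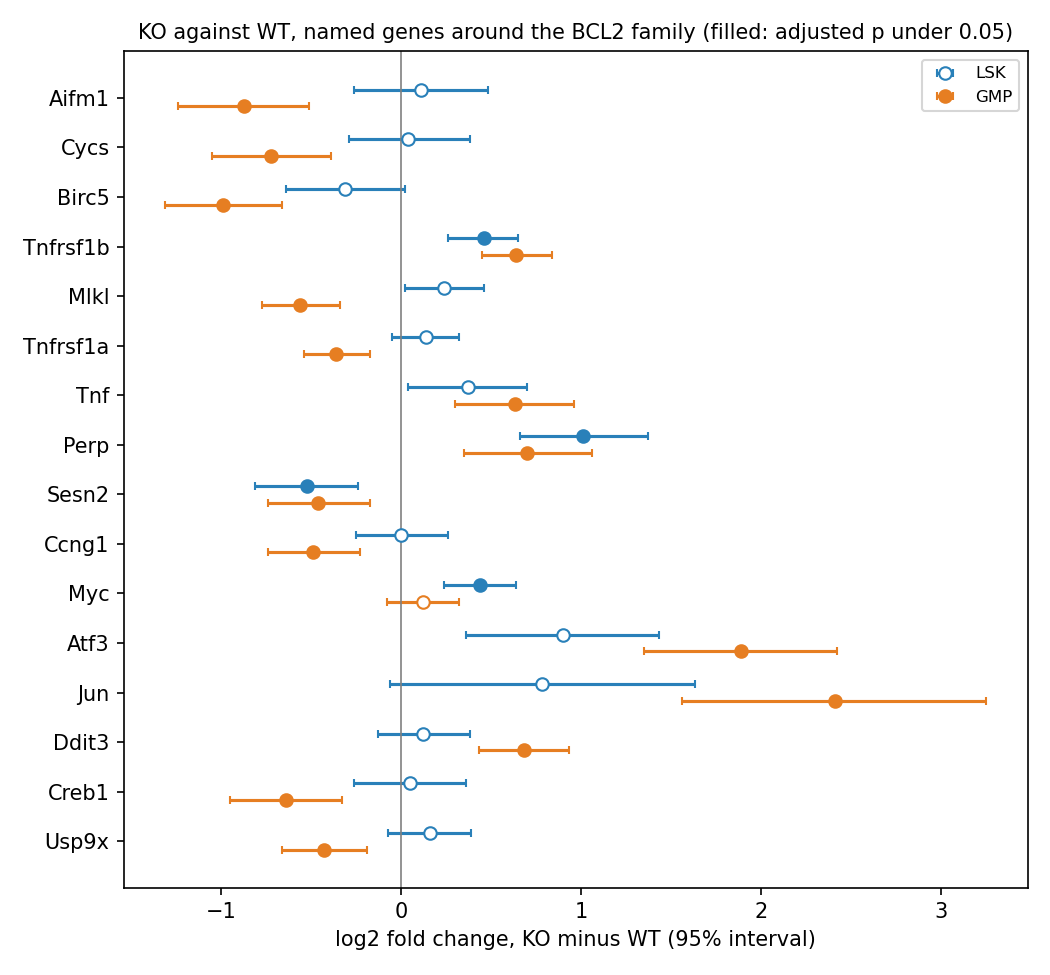
Difference between KO and WT (log2, KO minus WT) in LSK and in GMP for 16 genes around the family, with 95% intervals of the limma fit. Filled symbols passed the adjusted p threshold of 0.05. Jun and Atf3 lie farthest above 0 in GMP, and Birc5 and Aifm1 farthest below.

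The death receptor list, which feeds into Bid, had 12 measured genes. In GMP 2 rose and 4 fell, and in LSK 1 rose. Of all genes, 16.1% passed in GMP and 4.44% in LSK. Tnfrsf1b, the second receptor of TNF, read 9.19, 9.0 and 9.23 in GMP KO, against 8.50, 8.52 and 8.47 in GMP WT (log2 0.64, adjusted p = 0.000414). It read 8.48, 8.69 and 8.62 in LSK KO, against 8.14, 8.17 and 8.11 in LSK WT (log2 0.46, adjusted p = 0.0118). The LSK call ended without LSK KO replicate 2 (0.0565) or 3 (0.0527) and without LSK WT replicate 3 (0.0505), all adjusted p from limma. Mlkl, the executor of necroptosis, read 8.20, 8.4 and 8.45 in GMP KO, against 8.85, 9.06 and 8.81 in GMP WT (log2 -0.56, adjusted p = 0.00221). Tnf was higher in GMP KO by 0.63 (adjusted p = 0.0131), a call that ended without GMP WT replicate 1 (adjusted p = 0.0606). Tnfrsf1a, the receptor with a death domain, was at -0.36 (adjusted p = 0.0118), a call that ended with quantile normalisation repeated (-0.19, adjusted p = 0.203), in the fit of the 2 GMP groups alone (adjusted p = 0.0787) and without GMP WT replicate 1 (adjusted p = 0.063).

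The p53 list holds regulators and other targets of p53, the factor upstream of Bbc3, Pmaip1 and Bax. It had 12 measured genes, of which 1 rose and 2 fell in GMP and 1 rose and 1 fell in LSK. Of all genes, 16.1% passed in GMP and 4.44% in LSK. Perp, a p53 target and component of desmosomes, was higher in KO in both cell types. It read 7.23, 6.71 and 7.05 in LSK KO, against 5.96, 6.15 and 5.85 in LSK WT (log2 1.01, adjusted p = 0.00308), and rose by 0.70 in GMP (adjusted p = 0.01). Sesn2, a stress-induced inhibitor of mTORC1 signalling, was lower in both, with log2 differences of -0.52 in LSK (adjusted p = 0.0403) and -0.46 in GMP (adjusted p = 0.0306), and Ccng1 was at -0.49 in GMP (adjusted p = 0.0122). In LSK the Sesn2 call ended with quantile normalisation repeated (0.108), arrays centred (0.0609), all probe sets tested (0.0994) and without any single LSK or GMP WT array (adjusted p of 0.0608 to 0.136). In GMP it ended with array weights (-0.30, adjusted p = 0.0794), in the 2-group fit (0.125), with all probe sets tested (0.0613) and without any GMP array other than KO replicate 3 (0.05 to 0.0868), with a difference of -0.29 without GMP KO replicate 1, all from limma. The Ccng1 call ended with quantile normalisation repeated (-0.31, adjusted p = 0.0547), in the fit of the 2 GMP groups alone (adjusted p = 0.0613) and without GMP WT replicate 3 (adjusted p = 0.0535).

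Of 7 measured regulators of MCL1 and BIM protein turnover, 1 fell in GMP, near the 16.1% of all genes that passed there. In LSK 0 passed, and 0 had an unadjusted p under 0.05 (limma). Usp9x, a deubiquitinase that stabilises MCL1, was at -0.43 in GMP (adjusted p = 0.0157), a call that ended with quantile normalisation repeated (-0.26, adjusted p = 0.0658), in the fit of the 2 GMP groups alone (adjusted p = 0.0885) and without GMP WT replicate 2 (adjusted p = 0.0702). Of 10 genes of outer membrane channels and mitochondrial dynamics, 0 passed in either cell type, with 2 in LSK and 4 in GMP at an unadjusted p under 0.05 (limma).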

How the data were processed

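Sorted cells gave RNA by the Qiagen RNeasy Micro Kit, which NuGEN WT-Ovation Pico amplified and the Ambion WT Expression Kit labelled, per the labels' protocols. The deposited values are log2 intensities that the authors made with RMA, per the submitters' processing notes; no source used here gives the software, version or genome build. No normalisation was added. Of 34760 probe sets, 21640 carried a single symbol (21553 named through a GRCm38.p6 gene table, 87 by the array annotation), 1321 carried several and 11799 were not listed; the brightest set of each gene gave 19937 genes. A probe set pools the transcripts its probes match, so isoforms are not resolved, and protein was not measured.

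A single limma 3.58.1 fit (R 4.3.3; lmFit, eBayes, 8 residual and 5.16 prior degrees of freedom) of 4 groups over 12 arrays gave every contrast, two-sided, with Benjamini-Hochberg adjustment over 19937 genes and a threshold of 0.05. Every adjusted p is from limma. An exact permutation test of 3 against 3 arrays cannot go below 0.1 and was not used. The number of arrays limits the precision. The limma fit was tested on simulated data with known changes placed in LSK KO, and their recovery was checked in the LSK contrast. The other steps were not tested on simulated data.

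Named were all members, Lamtor2, up to 4 genes per list and KO contrast with the smallest p past the threshold, and the 3 genes most like each changed member. Members and lists were chosen with earlier results of these data known. Some listed genes were not analysed here. No pairing was used, because the labels do not say which LSK and GMP samples share a mouse. Deviations from group means of same-numbered LSK and GMP arrays of a genotype correlated at -0.179 to 0.177. For KO and WT arrays, which come from different mice, the range was -0.152 to 0.285. These correlations cannot show whether mice are shared. Where a mouse gave both cell types, LSK against GMP and the interaction treat its arrays as independent.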

Additional observations from a re-analysis of the deposited data

Results flagged for a closer look

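For 3 members the KO difference was not the same in LSK and in GMP by the test of the interaction (LSK difference minus GMP difference, limma). Bcl2l1 had an interaction of -0.83, with differences of 0.18 in LSK and 1.01 in GMP and an adjusted p of 0.00919; its KO arrays lay above all WT arrays in GMP and overlapped them in LSK. Bid had an interaction of 0.86, with differences of 0.15 in LSK and -0.72 in GMP and an adjusted p of 0.00932; its KO arrays lay below all WT arrays in GMP and overlapped them in LSK. Bcl2 had an interaction of 0.54, with differences of 0.05 in LSK and -0.49 in GMP and an adjusted p of 0.0387, the call that most alternatives ended. No group held the 4 or more arrays that a test for a single outlying sample needs.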

How the results depend on the processing

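Members called in GMP KO against WT stayed at 6 or 7 of 9 under every alternative run. The share of all genes that passed in GMP ranged from 8.92% to 24.4%. In LSK the count of 0 became 1 (Pmaip1) with array weights, in the fit of the 2 groups compared alone and without GMP KO replicate 2, a range of 0 to 1 over single arrays left out. Of all genes 8.7%, 6.97% and 5.33% passed in these fits. The interaction count of 3 was 5 with array weights, where 10.6% of all genes passed. It ranged from 2 to 6 over single arrays left out, and was 6 without GMP KO replicate 2, where 9.56% passed. The interaction was not run for the 2-group fit. LSK against GMP in WT gave 4, and 2 with arrays centred on their gene median. The count ranged from 2 to 4 over arrays left out and from 2 to 5 over the other alternatives. LSK against GMP in KO gave 3, and 1 to 3 over arrays left out. It gave 0 in the 2-group fit, where 6.66% of all genes passed. With all probe sets tested it gave 1, and 8.51% of those sets passed. Fewer samples or more tested features enter these fits by construction; otherwise the cause was not tested. The replicate block, with the number as a fixed term, gave 7 members in GMP, 0 in LSK, 3 in the interaction, 4 between LSK and GMP in WT and 3 in KO, as in the fit without it. It turned the Atf3 difference in LSK into a call (adjusted p = 0.0482 from limma). Same-numbered arrays did not deviate together in every pair. Each LSK KO array did correlate best with the LSK WT array of its number, though weakly (0.065, 0.036 and 0.129).

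Signs turned only for differences that did not pass. With quantile normalisation repeated, KO minus WT in LSK was -0.027 for Bcl2, 0.015 for Bbc3, -0.010 for Bak1, -0.016 for Cycs, -0.071 for Ccng1 and -0.010 for Creb1; Bbc3 was -0.090 in GMP, 0.105 in the interaction and 0.038 between LSK and GMP in KO; LSK minus GMP was 0.123 for Bcl2 and -0.064 for Pmaip1 in WT and -0.012 for Bcl2l11 in KO. With arrays centred, Bbc3 was 0.024 in LSK, -0.069 in GMP and 0.093 in the interaction, and Pmaip1 -0.093 between LSK and GMP in WT. With array weights, Bbc3 was 0.000 in LSK, 0.077 between LSK and GMP in WT and 0.041 in KO, and Ccng1 -0.002 in LSK. With the mean of all probe sets Cycs was -0.108 in LSK.

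Over single arrays left out, these ranges crossed 0. KO minus WT in LSK: Bcl2 -0.012 to 0.093, Bbc3 -0.064 to 0.051, Bad -0.070 to 0.122, Cycs -0.021 to 0.108, Ccng1 -0.059 to 0.059 and Creb1 -0.032 to 0.149. In GMP: Bbc3 -0.158 to 0.158 and Bad -0.270 to 0.043. Interaction: Bbc3 -0.160 to 0.156 and Bad -0.011 to 0.301. LSK minus GMP in WT: Bcl2 -0.074 to 0.009, Bbc3 -0.169 to 0.147 and Pmaip1 -0.104 to 0.147. In KO: Mcl1 -0.203 to 0.009, Bcl2l11 -0.007 to 0.201, Bbc3 -0.084 to 0.033 and Bad -0.307 to 0.006.

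Over all genes, 886 passed in LSK, 1734 with array weights, 1390 in the 2-group fit and 455 to 1672 over arrays left out. In GMP 3212 passed, 1778 in the 2-group fit and 1853 without GMP WT replicate 2. The interaction gave 1591, or 800 without GMP WT replicate 2, and LSK against GMP in KO 3160, or 1327 in the 2-group fit and 1667 without LSK KO replicate 3. Calls that were higher made up 35.9% in GMP (24.7% with arrays centred), 52.4% between LSK and GMP in WT (34.3% centred) and 66.9% in the interaction (80.7% centred, 54% with quantile normalisation repeated). Centring moved the median of all genes between LSK and GMP in WT to -0.124, against -0.029. Signal over the floor limits Bbc3, whose group means were 6.10 and 6.11. It also limits Pmaip1 in WT, at a mean of 6.23 in LSK WT and in GMP WT.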
